A study of Homo sapiens with 5 samples.

Results

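The cluster of miR-183, miR-96 and miR-182 is a set of 3 miRNA hairpins, MIR183, MIR96 and MIR182, that are transcribed together as one primary transcript. Its 6 mature arms, the 5p and 3p products of each hairpin, were taken by name from the count tables of 5 small RNA libraries. They make up 6 of 2565 human miRNA rows, and all 6 were among the 697 rows that passed the low-count filter. The libraries came from MCF10A, a line of human mammary epithelial cells that is immortalized but does not form tumours. In the attached group (3 libraries), cells grew on uncoated plates, and their time label is 0 h. In the detached group (2 libraries), cells were kept for 24 h on a 2% poly-HEMA coating, a polymer surface that prevents adhesion. The series' design text, however, gives 24 h of culture for both groups. Both groups shared one medium, DMEM/F12 with horse serum, epidermal growth factor, insulin, cholera toxin, hydrocortisone and antibiotics, and in both 50 µg of total RNA was extracted and RNAs of 18 to 24 nt were selected. Nothing in the labels states that replicates were grown as separate cultures, so the p-values reflect spread among these libraries, which could be technical.

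As background, each hairpin is cut by Drosha and Dicer into a duplex. One strand is loaded into Argonaute and pairs with target mRNAs through its seed, bases 2 to 8. Loading was not measured in these libraries. The cluster is best known from sensory organs, where miR-96 seed mutations cause hearing loss, and from epithelial tumours, where its members are often abundant. Reported targets include FOXO1, a transcription factor that restrains the cell cycle and favours apoptosis, for miR-96 and miR-182, and ZEB1, a repressor of epithelial genes, has been described as repressing the cluster. The comparison of attached with detached cells asks which miRNAs differ when epithelial cells lose contact with their substrate.

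The mature sequences are shown because the arms are told apart by these letters alone and because the 5p seeds differ by few bases. All come from RefSeq (GRCh38.p14), which matched 6 of 6 arms. Capitals mark the seed.
hsa-miR-183-5p: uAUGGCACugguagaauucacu
hsa-miR-96-5p: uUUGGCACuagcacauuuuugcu
hsa-miR-182-5p: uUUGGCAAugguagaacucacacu
hsa-miR-183-3p: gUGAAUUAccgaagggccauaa
hsa-miR-96-3p: aAUCAUGUgcagugccaauaug
hsa-miR-182-3p: uGGUUCUAgacuugccaacua
No 2 of the 6 arms share a whole seed. The seed of miR-96-5p matches that of miR-183-5p at 6 of 7 positions and that of miR-182-5p also at 6, while miR-183-5p and miR-182-5p match at 5. Over the whole arm the order is different: of the 22 bases compared from the 5′ end, miR-183-5p and miR-182-5p have 18 in common, against 13 for miR-183-5p and miR-96-5p and, of 23 bases, 12 for miR-96-5p and miR-182-5p. The nearest human mature sequence to miR-182-5p was miR-183-5p, 5 edits away, and every other arm was at least 5 edits from any other name. Lengths ran from 21 nt (miR-182-3p) to 24 nt (miR-182-5p), inside the selected size range.

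Among human mature miRNAs in the sequence table, miR-1271-5p was the only one outside the cluster with the seed of a member, that of miR-96-5p.
hsa-miR-1271-5p: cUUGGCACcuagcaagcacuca
It maps to chromosome 5 (176367960 to 176367981, plus strand). Attached libraries held 3, 2 and 4 counts of miR-1271-5p and detached libraries 3 and 8, and it did not pass the low-count filter. miR-96-5p thus held nearly all counts of its seed in each library.

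All 3 hairpins lie on the minus strand of chromosome 7 (GRCh38, GENCODE 29): MIR183 from 129774905 to 129775014, MIR96 from 129774692 to 129774769 and MIR182 from 129770383 to 129770492. MIR183 and MIR96 are 135 bp apart, MIR96 and MIR182 4199 bp, and the 3 span 4632 bp. No other annotated gene overlapped that span. The nearest protein-coding genes were NRF1, 13301 bp away on the plus strand, and UBE2H, 55718 bp away on the minus strand, and the long noncoding RNA AC084864.1 lay 8356 bp upstream on the minus strand. The hairpins of MIR96 and MIR182 are given with both mature arms in capitals, the 5p arm first, since the arm ratios below rest on these pairs.
MIR96: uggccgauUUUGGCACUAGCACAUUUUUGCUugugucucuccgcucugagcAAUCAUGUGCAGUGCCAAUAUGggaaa
MIR182: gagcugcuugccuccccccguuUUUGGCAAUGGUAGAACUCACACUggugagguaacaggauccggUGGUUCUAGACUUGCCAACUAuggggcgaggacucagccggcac
Tables also held 3 rows with these names and the prefix p-, whose meaning the sources used here do not give. They had 2, 2 and 0 counts over all libraries and were left out. The 67 rows for these miRNAs in other species had 0 counts.

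Levels are TMM-scaled counts per 1000000 human miRNA counts (CPM), and the human miRNA totals behind them ran from 8805009 to 15793173 per library. Attached replicate 2 stood apart: across the 697 tested miRNAs its Spearman correlations with the remaining libraries ran from 0.812 to 0.857, whereas those libraries correlated with each other at 0.927 to 0.961. The comparisons it bears on most are therefore given with and without it. The epithelial miRNAs miR-200c-3p, miR-141-3p, miR-205-5p and miR-200b-3p summed to 54650 to 98269 CPM in attached and 84771 to 94145 CPM in detached libraries. Of 16 miRNAs typical of blood, muscle, endothelium, neural cells or fibroblasts, the highest value in any library was 39.7 CPM (miR-143-3p in detached replicate 1), and miR-133a-3p was at 0 in all 5. The 4 fibroblast miRNAs among them summed to 3.31 to 15.6 CPM in attached and 14.0 to 57.8 CPM in detached libraries. Most of each sum came from miR-143-3p and miR-145-5p. The mean of miR-199a-3p, counted jointly with miR-199b-3p, was 0.574 CPM in attached and 0.738 CPM in detached libraries. That of miR-214-3p was 0.057 and 0.032 CPM, and neither passed the low-count filter. Of these 4, miR-145-5p (log2 fold change 3.98, edgeR adjusted p = 0.146) and miR-143-3p (1.86, edgeR adjusted p = 0.730) did not pass with all 5 libraries in edgeR and passed without attached replicate 2 (4.15 and 3.12, edgeR adjusted p = 0.00273 and 0.0225). Their part in the values of the cluster was not tested. The level of 3 counts, used as the floor, lay between 0.191 and 0.455 CPM depending on the library. Floors and intervals describe counting error alone, because the reads carry no molecular identifiers and may be copies of one molecule.

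The cluster as a whole was a small part of the miRNA pool in every library. Its 6 arms together held 0.382% (exact 95% binomial interval 0.379 to 0.385), 0.214% (0.211 to 0.217) and 0.346% (0.343 to 0.350) of human miRNA counts in the attached libraries (replicates 1, 2 and 3, the order used throughout). The detached libraries (replicates 1 and 2) held 0.398% (0.395 to 0.401) and 0.416% (0.412 to 0.420). Both detached libraries lay above all 3 attached ones on this share, with attached replicate 2 lowest. For comparison, 14.9% of the 697 tested single miRNAs separated this way in TMM-scaled CPM. That scale differs from the share of library totals used for the cluster, on which the matching percentage was not computed. On the TMM scale the groups overlapped: attached libraries summed to 4043, 2864 and 3038 CPM and detached ones to 4002 and 3333 CPM, or 3315 ± 636 CPM (SD, n = 3) and 3667 ± 473 CPM (SD, n = 2). The 5p arms made up 98.3% to 99.4% of the cluster counts. In bulk RNA, fewer cells with a miRNA and less of it per cell cannot be told apart. A mature miRNA is read end to end, so levels of different arms were compared without dividing by length. Whether arms of different sequence were recovered equally well was not measured, so such comparisons are of counts.

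hsa-miR-182-5p was the most abundant arm in 5 of 5 libraries and the one with the smallest spread over them. Attached libraries held 2017, 1438 and 1364 CPM of it, detached libraries 1865 and 1391 CPM. The groups overlapped fully, with means of 1607 ± 357 CPM (SD, n = 3) and 1628 ± 335 CPM (SD, n = 2). By count it ranked between 45 and 55 among human miRNAs in every library. Its log2 fold change, detached over attached, was 0.02 (SE 0.55, edgeR adjusted p = 0.991), and it took either sign as single libraries were left out, from -0.16 to 0.27.

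hsa-miR-183-5p is the first 5p arm of the transcript. Attached libraries held 922, 1246 and 1018 CPM of it, detached libraries 955 and 587 CPM. Detached replicate 2 was the lowest of the 5, while detached replicate 1 lay inside the attached range. The means were 1062 ± 166 CPM (SD, n = 3) and 771 ± 260 CPM (SD, n = 2). In edgeR this gave a log2 fold change of -0.46 with SE 0.58 and an adjusted p = 0.883. Leaving out detached replicate 2 brought it to -0.08 (SE 0.85), and leaving out detached replicate 1 to -0.80 (SE 1.01). In the edgeR fit of all 5 libraries without a block, with TMM scaling and filterByExpr, miR-183-5p was the only arm with a negative value.

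hsa-miR-96-5p is the arm whose seed is mutated in inherited hearing loss. Attached libraries held 1081, 141 and 608 CPM of it, detached libraries 1138 and 1299 CPM. Both detached libraries were above all 3 attached ones, though detached replicate 1 was only 1.05 times attached replicate 1. The same separation held for 14.9% of the 697 tested miRNAs, and the reverse one for 14.2%. The means were 610 ± 470 CPM (SD, n = 3) and 1218 ± 114 CPM (SD, n = 2). The difference did not pass the test: the log2 fold change was 1.00 (SE 0.81, edgeR adjusted p = 0.795), and 0.53 (SE 0.49, edgeR adjusted p = 0.750) without attached replicate 2. Attached replicate 2 held 929 counts of miR-96-5p, against 7156 to 17866 in the other libraries.

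The 3p arms were scarce. For hsa-miR-183-3p, attached libraries held 15.1, 14.1 and 28.0 CPM and detached libraries 24.1 and 32.2 CPM, with overlapping groups. Its log2 fold change was 0.56 (SE 0.64, edgeR adjusted p = 0.857), opposite in sign to that of its own 5p arm. For hsa-miR-182-3p, attached libraries held 7.23, 24.7 and 15.7 CPM and detached libraries 18.1 and 16.1 CPM, and both detached values lay inside the attached range. Its log2 fold change was 0.11 (SE 0.69, edgeR adjusted p = 0.984), and 0.57 (SE 0.52) without attached replicate 2, which here was the highest library.

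hsa-miR-96-3p was the rarest arm in 5 of 5 libraries, with 13, 0 and 53 counts in attached and 27 and 101 counts in detached libraries. Exact 95% Poisson intervals on these counts were 6.92 to 22.2 and 39.7 to 69.3 for attached replicates 1 and 3, and 17.8 to 39.3 and 82.3 to 123 for the detached libraries. Replicates of a group thus differed beyond counting error, and the groups overlapped. For attached replicate 2, with 0 counts, the floor of 3 counts is 0.455 CPM. The log2 fold change was 1.28 (SE 1.24, edgeR adjusted p = 0.812), but it was -0.13 (SE 1.77) without detached replicate 2, 2.89 (SE 1.34) without attached replicate 3 and 0.71 (SE 0.71) without attached replicate 2.

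**Figure D1:**
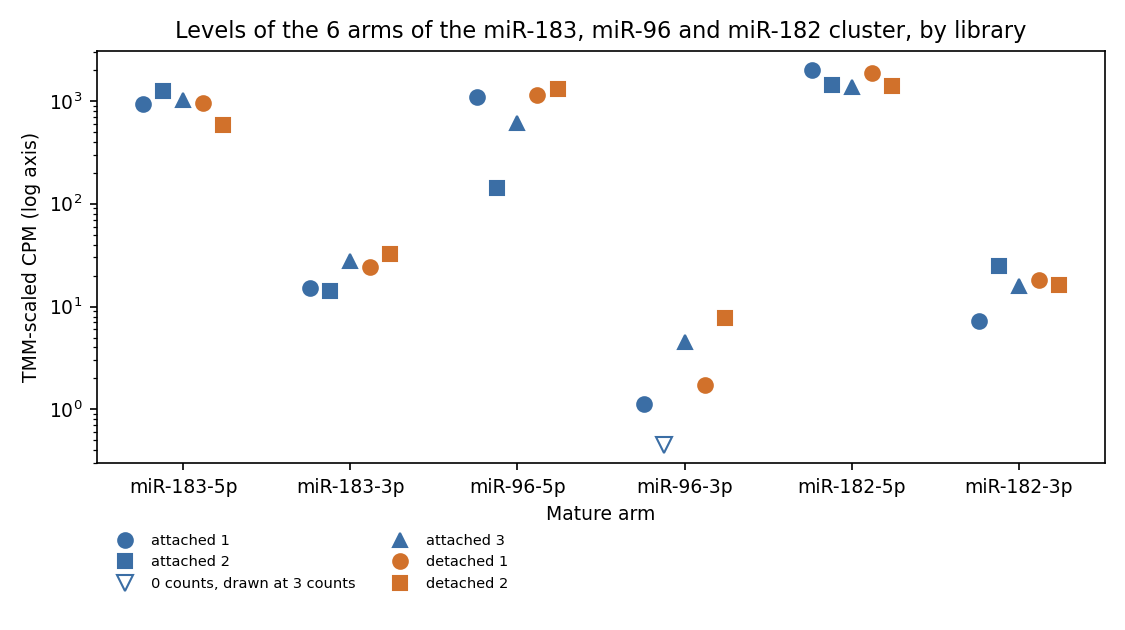
Level of each mature arm (x axis) in TMM-scaled CPM on a log axis, 1 point per library, attached in blue and detached in orange, with the symbol giving the replicate. The 3 arms of the 5p side lie between 587 and 2017 CPM except miR-96-5p in attached replicate 2 (141 CPM), and miR-96-3p had 0 counts in that library, drawn as an open triangle at its floor of 3 counts.

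The order of levels was therefore only partly stable. miR-182-5p stood above miR-96-5p and miR-183-5p in all 5 libraries, and miR-96-3p below both other 3p arms in all 5. Between miR-96-5p and miR-183-5p the order was not stable: miR-96-5p had more counts in 1 of 3 attached and 2 of 2 detached libraries. miR-183-3p exceeded miR-182-3p in 4 of 5 libraries, attached replicate 2 being the exception.

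Over all human miRNAs edgeR's quasi-likelihood test called 0 of 697 (0%) higher or lower in detached cells at adjusted p under 0.05, and accordingly 0 of the 6 arms. At unadjusted p under 0.05, 33 miRNAs (4.73%) were higher and 16 (2.3%) lower, and 0 of the 6 arms were among them. limma-voom on the same 697 called 0 higher and 0 lower. DESeq2, which tested 1916 human miRNA rows, called 12 higher and 0 lower. Neither called any of the 6 arms. Leaving out attached replicate 2 gave 22 miRNAs higher and 1 lower (3.24% and 0.147% of 679), again with 0 of the arms. The median log2 fold change of the 6 arms was 0.34, with 5 positive and 1 negative, against -0.04 over all tested miRNAs, of which 340 were positive and 357 negative. In the authors' deposited table the log2 fold change was 0.75 for miR-96-5p, -0.40 for miR-183-5p and -0.01 for miR-182-5p, with adjusted p from 0.998 to 0.999 for the 6 arms. These misses do not show that the arms were at equal levels, because the standard errors were between 0.55 and 1.24 on the log2 scale.

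**Figure D2:**
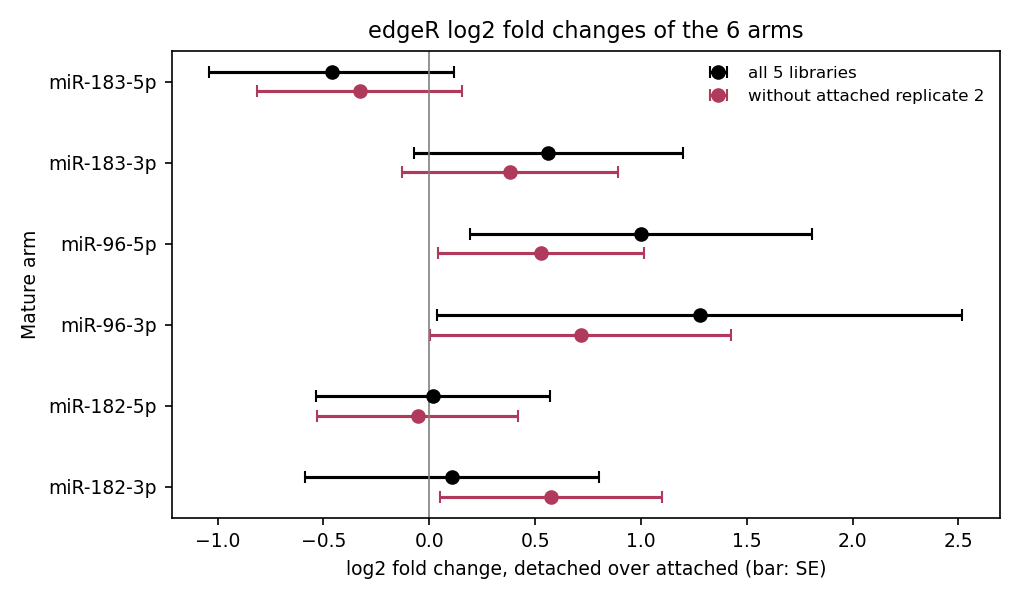
edgeR log2 fold change, detached over attached (x axis), of each arm with its standard error as a bar, for all 5 libraries in black and without attached replicate 2 in red. Only miR-183-5p is negative in both fits, and miR-96-5p moves from 1.00 to 0.53 when that library is left out.

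Because the 3 hairpins come from one transcript, ratios within a library compare their products without any scaling between libraries. The ratios are descriptions and carry no test. The count of miR-96-5p was 53.6%, 9.80% and 44.6% of that of miR-182-5p in attached libraries and 61.0% and 93.4% in detached ones. Both detached libraries were above all attached ones, and attached replicate 2 was far below the rest. The mean log2 ratio was -1.81 ± 1.34 in attached (SD, n = 3) and -0.41 ± 0.43 in detached libraries (SD, n = 2), a difference of 1.40 that was 0.63 without attached replicate 2. Against miR-183-5p, miR-96-5p stood at 117%, 11.3% and 59.8% in attached and 119% and 221% in detached libraries. In this ratio both detached values were above the attached ones, detached replicate 1 by very little. The log2 difference of 1.92 was 0.96 without attached replicate 2. Both ratios rest on the same miR-96-5p counts, so they are not independent observations. Among single miRNAs 14.9% of the 697 tested separated the groups this way, and the share among other ratios was not computed.

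The count of miR-183-5p was 45.7%, 86.6% and 74.6% of that of miR-182-5p in attached and 51.2% and 42.2% in detached libraries. These groups overlapped, the log2 ratio spanning 1.04 over the 5 libraries, against 3.25 for miR-96-5p to miR-182-5p. Without attached replicate 2 these spans were 0.82 and 1.07, so most of the contrast between them came from that library. In shares of the cluster's counts, the miR-182 hairpin held 42.2% to 51.1% in all 5 libraries. The miR-96 hairpin held 26.8%, 4.92% and 20.2% in attached and 28.5% and 39.2% in detached libraries, and the miR-183 hairpin 23.2%, 44.0% and 34.4% in attached and 24.5% and 18.6% in detached ones.

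**Figure D3:**
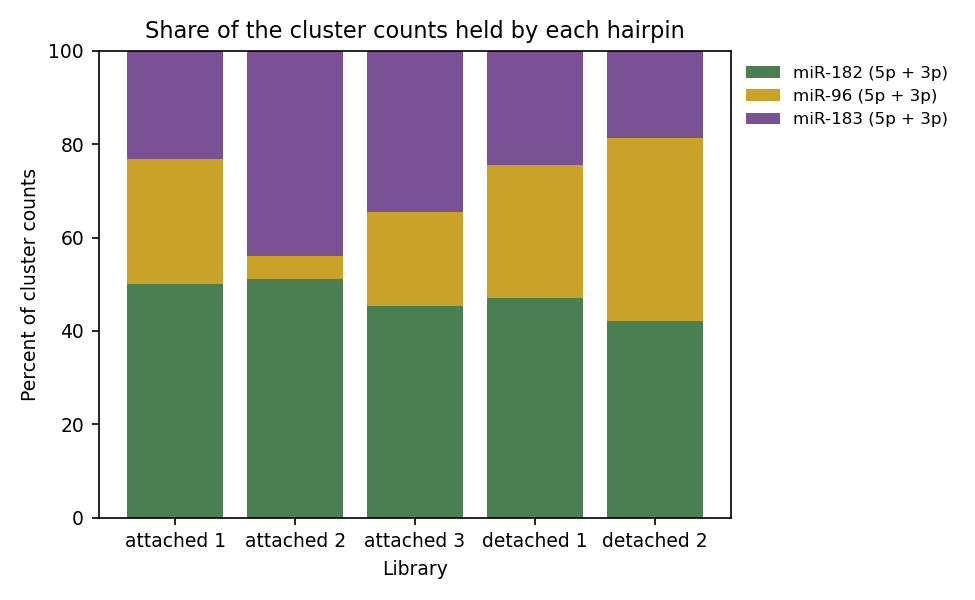
Percent of the cluster's counts (y axis) held by the miR-182, miR-96 and miR-183 hairpins, both arms summed, in each library. The miR-182 share stays between 42.2% and 51.1%, while the miR-96 share runs from 4.92% in attached replicate 2 to 39.2% in detached replicate 2.

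The 5p arm exceeded the 3p arm of its hairpin in every library, to a degree that differed between hairpins and libraries. For miR-183 there were 61.2, 88.3 and 36.4 counts of the 5p arm per count of the 3p arm in attached and 39.6 and 18.2 in detached libraries. Detached replicate 2 was lowest, and detached replicate 1 lay between attached replicates 3 and 1. For miR-182 the ratio was 279, 58.2 and 86.8 in attached and 103 and 86.2 in detached libraries, with attached replicate 1 far above the rest. For miR-96, attached replicates 1 and 3 gave 955 and 135 and the detached libraries 662 and 169, while attached replicate 2 had no 3p count to set it by. None of the arm ratios separated the groups. Over the 5 libraries the log2 arm ratio spanned 2.27 for miR-183, 2.26 for miR-182 and 3.80 for miR-96 with 0.5 added to each count, against a median of 2.56 over the 169 hairpins with both arms tested. Without attached replicate 2 the spans were 1.74, 1.69 and 2.78, against a median of 1.34.

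**Figure D4:**
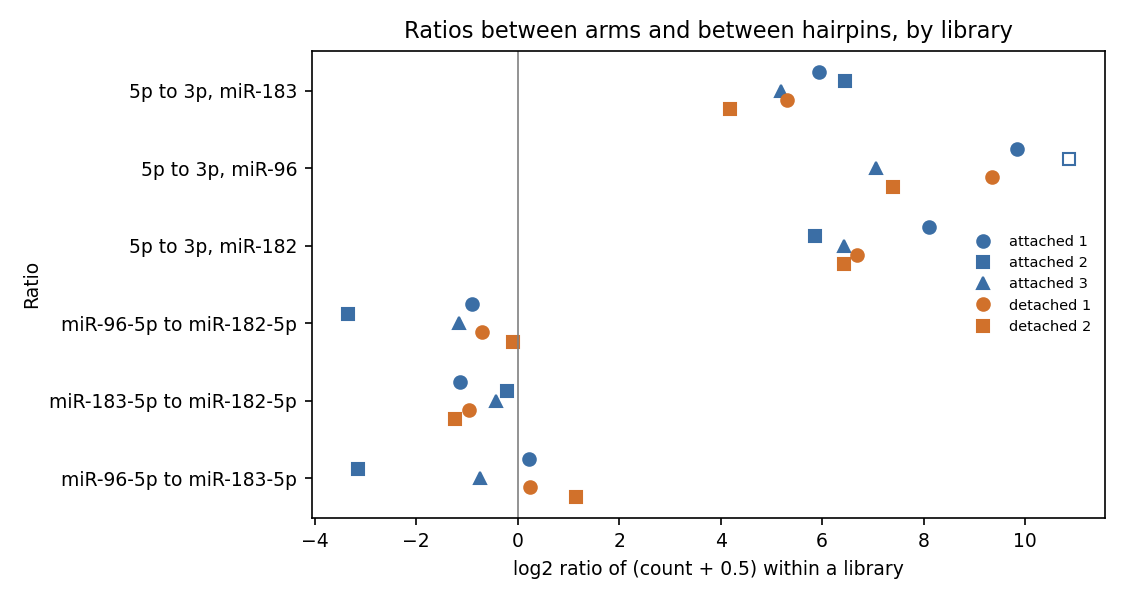
log2 ratio of counts within a library (x axis, 0.5 added to each count) for the 5p to 3p arms of each hairpin and for pairs of 5p arms, 1 point per library. The open square is miR-96 in attached replicate 2, where the 3p arm had 0 counts, and both miR-96-5p ratios of that library lie far left of the other 4.

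Agreement between the profiles of the arms was measured as the root mean square difference over the 5 libraries of log2(CPM + 0.5) values, each centred on its own mean. It was 0.41 for miR-182-5p and miR-183-5p, 1.11 for miR-182-5p and miR-96-5p and 1.47 for miR-183-5p and miR-96-5p. For comparison, 82 pairs of other hairpins lying within 10000 bp on one strand, each by its more abundant arm, had a median of 0.92 (quartiles 0.55 and 1.46), and all 62128 pairs of miRNAs with a mean of at least 10 CPM had 1.05. Of the other neighbouring pairs, 84.1% were further apart than miR-182-5p and miR-183-5p, and 24.4% further apart than miR-183-5p and miR-96-5p, whose hairpins lie next to each other. These values rested largely on attached replicate 2. Without it the differences were 0.31 for miR-182-5p and miR-183-5p, 0.39 for miR-182-5p and miR-96-5p and 0.67 for miR-183-5p and miR-96-5p, against a median of 0.39 for the other neighbouring pairs, of which 59.8%, 48.8% and 17.1% were further apart. All pairs share the same 5 libraries. Both arms of miR-96 were lowest in attached replicate 2, where the 3p arm had 0 counts, and the difference between them was 0.94. Without that library it was 1.05, against a median of 0.60 for all pairs.

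Of 348 other miRNAs with a mean of at least 10 CPM, the 5 with profiles nearest to the mean profile of the 3 arms of the 5p side over the 5 libraries were miR-221-5p (0.11), miR-574-3p (0.13), miR-26a-5p (0.19), miR-34a-5p (0.20) and miR-2682-3p (0.21), against a median of 0.76. All 5 were lowest in attached replicate 2, as the mean profile is through miR-96-5p. The mean profile is not that of any single arm. In attached replicate 2 its centred value was -0.65, against -2.25 for miR-96-5p, 0.44 for miR-183-5p and -0.15 for miR-182-5p. Nearness to the mean is therefore not likeness to each arm. Without that library miR-221-5p was still the nearest (0.09), but the other 4 were no longer among the 5 nearest. For miR-26a-5p, attached libraries held 10899, 4993 and 5481 CPM and detached libraries 8759 and 7593 CPM. edgeR adjusted p was between 0.941 and 0.984 for these 5.

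**Figure D5:**
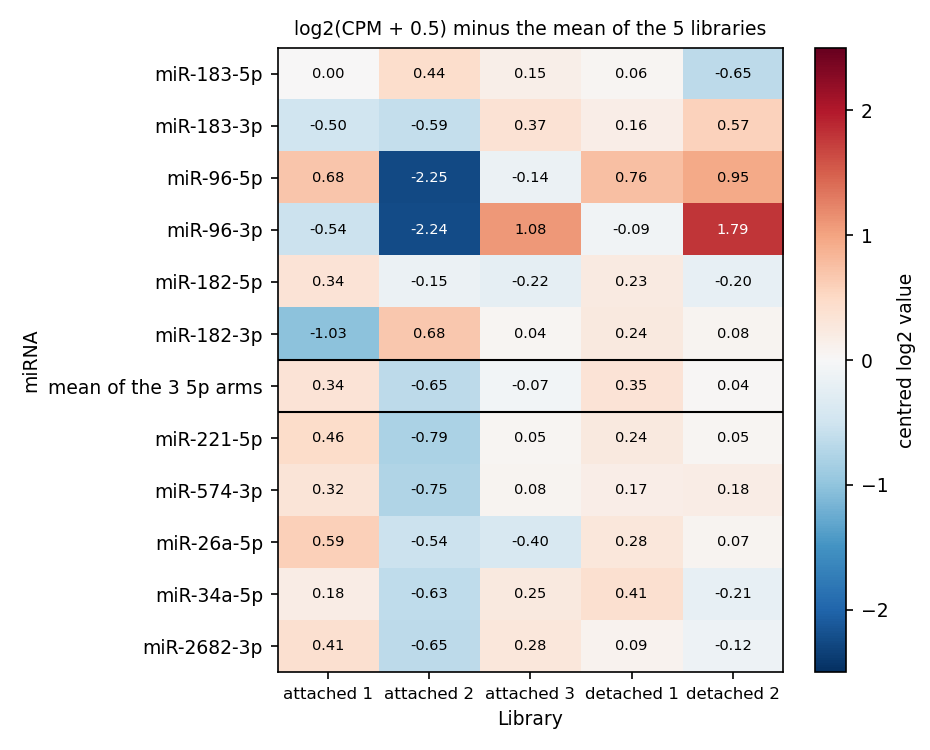
Values are log2(CPM + 0.5) minus the mean of the 5 libraries, with 1 column per library. Rows are the 6 arms, the mean of the 3 arms of the 5p side and the 5 other miRNAs nearest to that mean profile. Blue is below and red above the row's mean, and both miR-96 arms are lowest in attached replicate 2, whereas miR-183-5p and miR-182-3p are highest there.

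Attached replicate 2 touched the 3 hairpins unequally. Relative to the mean of the other 2 attached libraries its log2 level was -2.52 for miR-96-5p, 0.36 for miR-183-5p, -0.21 for miR-182-5p and 1.17 for miR-182-3p. Over 603 tested miRNAs with a sequence the median of this difference was -0.26, with 10th and 90th percentiles of -2.28 and 1.77. miR-96-5p lay below all but 7.96% of them. miR-96-5p also had the most uridines among the 6 arms, 43.5% of its bases, more than 93.5% of the 603. Across the 603 miRNAs, which share these libraries, the difference had a Spearman correlation of -0.11 with uridine content and 0.20 with GC content. The part of base content in the low miR-96-5p value was not tested.

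Of the 7 other epithelial miRNAs listed as repressed by ZEB1 or tied to the same epithelial state, 6 were positive, the median log2 fold change being 0.38, and 0 were called by edgeR over all 697 miRNAs. The exceptions in size and sign were miR-203a-3p, which promotes differentiation of stratified epithelium (3.42, SE 0.73, edgeR adjusted p = 0.170), and miR-141-3p of the miR-200 family (-0.69, SE 0.52). miR-203a-3p was called without attached replicate 2 (3.61, edgeR adjusted p = 0.00329). For miR-200c-3p, attached libraries held 14142, 2333 and 10689 CPM and detached libraries 18418 and 13747 CPM, with attached replicate 2 lowest. The list was split in that library. miR-200b-3p and miR-205-5p were also lowest there, whereas miR-200a-3p (822 CPM), miR-141-3p (29346 CPM) and miR-429 (112 CPM) were highest there. miR-203a-3p was neither.

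The 2 other miRNAs listed as repressors of FOXO1 with miR-96 and miR-182 were both lowest in attached replicate 2. So was miR-96-5p, whereas miR-182-5p was not. For miR-27a-3p, attached libraries held 15209, 678 and 16313 CPM and detached libraries 14935 and 26372 CPM. Its log2 fold change was 0.94 (SE 1.03, edgeR adjusted p = 0.853), and 0.38 without attached replicate 2. For miR-27b-3p, attached libraries held 5379, 805 and 3201 CPM and detached libraries 3083 and 3968 CPM, with a log2 fold change of 0.17 (SE 0.77) that was -0.29 without that library. Both were below miR-182-5p in attached replicate 2 and above it in the other 4 libraries, and edgeR called neither.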

How the data were processed

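Small RNA reads of 5 MCF10A libraries were counted by the authors, and the deposited tables give raw counts, not normalized, for 49965 named small RNAs. Build hg38 and DESeq2 are named in the submitters' processing notes. Which aligner and counter were used, and how reads matching several names were handled, is not given in the sources used here. The authors' deposited comparison table holds, per the file header, log2 fold changes, p-values, a test score and, as signal, counts divided by size factors. From this signal 100% of values above 0 came out as whole reads (tolerance 0.01), and 100% of them equalled the raw counts. The unit of this conversion was set from the raw counts. The edgeR run on these reads, which called 0 miRNAs, is therefore not a separate check.

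The 2565 human miRNA rows were tested two-sided by quasi-likelihood in edgeR 4.0.16 (R 4.3.3), with TMM factors on library sizes equal to the human miRNA total. Low counts were removed by filterByExpr (min.count 10, min.total.count 15), leaving 697 rows, and Benjamini-Hochberg adjustment ran over all of them, with calls at adjusted p under 0.05. Each standard error is |log2 fold change| over the root of F. The script was tested on simulated data with less spread than these libraries and larger fold changes than those of the arms. That test does not show how well differences of the size seen here would be detected. The members, the lists and the rule for named miRNAs (all 6 arms, seed relatives, the ZEB1 and FOXO1 lists, the 5 nearest profiles) were chosen with earlier results of these data known. DESeq2 1.42.0, limma-voom (limma 3.58.1), other scalings and filters, a replicate block and leaving out each library were alternatives. Counts of replicate pairs gave a chi-square of 729 to 4220 per degree of freedom, and no library was treated as a duplicate. Replicate numbers are shared between groups in the titles only, with nothing that ties the samples.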

Additional observations from a re-analysis of the deposited data

How the results depend on the processing

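None of the 6 arms was called in any of the 15 alternatives run, where tested (the filter of 100 CPM in 2 libraries kept only the 3 arms of the 5p side). miR-183-5p was negative in 15 of 15, miR-96-5p positive in 15 of 15 (0.53 to 1.70) and miR-183-3p positive in 14 of 14. The alternative on recovered reads used counts equal to the raw ones, so it adds nothing separate to these tallies. The log2 fold change of miR-182-5p, 0.02, became -0.0425 with DESeq2 size factors in edgeR, -0.0159 with the 100 CPM filter, -0.14 with the replicate block, -0.00848 with DESeq2 without attached replicate 2, -0.05 without attached replicate 2, -0.12 without attached replicate 3 and -0.16 without detached replicate 1, the lowest of its leave-one-out range up to 0.27. miR-182-3p was -0.25 without attached replicate 1 and at most 0.57 over the libraries left out, and miR-96-3p -0.13 without detached replicate 2 and at most 2.89. Scaling to library totals alone moved the median of all miRNAs from -0.04 to 0.20, and miR-96-5p to 1.18, miR-182-5p to 0.25 and miR-183-5p to -0.23.

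Over all human miRNAs the counts of 0 higher and 0 lower became 12 higher with DESeq2, 14 higher and 5 lower without the low-count filter, and 25 higher and 2 lower with DESeq2 without attached replicate 2, an alternative chosen after seeing the data, as were the recovered reads and the ratio spans and profile differences without attached replicate 2. Leaving out 1 library gave 0 to 22 higher and 0 to 1 lower. Where a detached library was left out, the spread of the remaining one was taken from the attached group. With the replicate block 0 were called either way, and miR-96-5p was 1.58 (SE 1.24). The correlation of deviations of the same-numbered libraries was -0.23 for number 1 and -0.21 for number 2. With only 2 detached libraries, their deviations from the group mean mirror each other. Attached replicate 1 thus gave 0.23 with detached replicate 2, and attached replicate 2 gave 0.21 with detached replicate 1. These correlations therefore cannot decide whether same-numbered libraries were paired. The cause of the moves in calls and fold changes was not tested. Counting error is widest for miR-96-3p, which had 194 counts in all, while miR-96-5p with 55435 counts had a standard error of 0.81 on the log2 scale.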
